A study of Homo sapiens with 12 samples.

Results

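Complement genes that act in or on blood cells were followed in a human leukaemia line of the promyelocytic type, HL-60, with added and with disrupted JMJD3. The genes were the receptors CR1, C3AR1 and C5AR1, the membrane regulators CD46, CD55 and CD59, the C1q chain gene C1QA, the C1q-binding gene C1QBP, and the alternative pathway genes CFP and CFD. They were taken by gene symbol, and the 10 are among 60660 genes with values in both deposited tables.

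Complement is a cascade of blood proteins that marks surfaces with fragments of C3 and C4, releases the chemoattractant peptides C3a and C5a, and can end in a pore in the target membrane. Myeloid cells read it through receptors for the fixed fragments and for the peptides, and protect themselves with membrane proteins that break up the enzymes of the cascade or block the pore. Some components, among them C1q, properdin and factor D, are made by myeloid or fat cells and not by the liver alone.

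Messenger RNA was sequenced in 4 groups of 3 libraries. In the first comparison, HL-60 cells that carried a JMJD3 expression vector were compared with HL-60 cells that carried a control vector. In the second, HL-60 cells with a JMJD3 knockout were compared with the parental line, for which the labels name no vector. JMJD3, the product of KDM6B, removes the Polycomb methyl mark from histone H3. No differentiating agent is named in the labels, and the promoter of the vector, the edited site of the knockout and whether it is 1 clone are not given in the sources used here. Replicates are numbered, but nothing in the labels ties a number to a culture of its own, so each p-value is set against a spread among libraries that could be technical only.

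The libraries held between 26861291 and 43647710 expected counts, read counts that need not be whole because ambiguous reads are shared out between genes. KDM6B had 98.0, 99.5 and 83.9 CPM (counts scaled to library size) in overexpression libraries and 35.2, 34.8 and 24.7 CPM in vector control libraries (log2 fold change 1.57). It had 37.2, 45.2 and 36.9 CPM in knockout libraries and 56.6, 56.6 and 59.0 CPM in parental libraries (-0.53), so its transcript was lower in the knockout but far from absent. Promyelocyte markers, a list of 7 genes with MPO and MYB among them, summed to 8752 to 9657 CPM in overexpression libraries and 16732 to 20889 CPM in vector control libraries, and to 9465 to 10172 CPM in knockout libraries and 11364 to 11865 CPM in parental libraries. In each comparison 4 of them were called lower, and 1 was called higher in the knockout. ELANE was too low to test in either comparison. It averaged 0.00804 CPM in overexpression and 0.0729 CPM in vector control libraries, and 0 CPM in knockout and 0.0860 CPM in parental libraries. A list of 8 mature neutrophil markers summed to 1044 to 1100 CPM in overexpression libraries and 102 to 119 CPM in vector control libraries, with 6 called higher, and to 119 to 121 CPM in knockout libraries and 124 to 134 CPM in parental libraries, with 1 called higher and 2 lower. The 5 T and B cell markers summed to 20.8 to 21.5 CPM in knockout libraries and 8.48 to 9.74 CPM in parental libraries, with 2 called higher and MS4A1 at 0 in both groups. The 5 erythroid and platelet markers summed to 23.4 to 25.9 CPM in overexpression libraries and 1.23 to 2.48 CPM in vector control libraries, and to 12.2 to 14.2 CPM in knockout libraries and 1.51 to 1.69 CPM in parental libraries, with 1 called higher in each comparison and PF4 and HBB at 0 in all 4 groups. The 5 epithelial and fibroblast markers summed to 3.59 to 4.29 CPM in overexpression libraries and 0.405 to 0.872 CPM in vector control libraries, with 1 called higher. The part of these changes in the results was not tested.

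On JMJD3 overexpression, 8 of the 10 complement genes passed the test, with 5 higher and 3 lower. The test was edgeR's quasi-likelihood test with a Benjamini-Hochberg adjusted p under 0.05, and it called 50.3% of the 14322 genes tested, 26.4% higher and 23.9% lower. CR1, C3AR1, C5AR1, CD55 and CFP rose, while CD59 and C1QBP fell, and CD46 and CFD were not called. C1QA was called lower too, but it passed the expression filter only through the vector control libraries. Its call is counted here and not read as a result. The median log2 fold change of the 10 was 0.81, beside -0.0031 over all genes tested. Scaling by library size alone moved that general median by 0.14. It changed the split of calls over all genes to 4788 higher and 2202 lower, against 3786 higher and 3421 lower. None of the 10 changed direction with it. The main fit did not use the replicate numbers. With them as a block, all 10 were called, beside 10489 of 14322 genes. With replicates 1 and 2 of each group summed, 7 were called, beside 4351 of 15260 genes.

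After JMJD3 knockout, 6 of the 10 passed the same test, with 3 higher and 3 lower, beside 37.8% of the 14186 genes tested, 17.6% called higher and 20.2% called lower. C1QA, CFP and C1QBP rose, C5AR1, CD55 and CD46 fell, and CR1, C3AR1, CD59 and CFD were not called. Their median log2 fold change was -0.011, beside -0.0022 over all genes. Of the genes called in both comparisons, C5AR1 and CD55 rose with overexpression and fell in the knockout, C1QBP did the reverse, and CFP rose in both. C1QA was called lower and then higher, but its overexpression call is not read as a result.

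**Figure D1:**
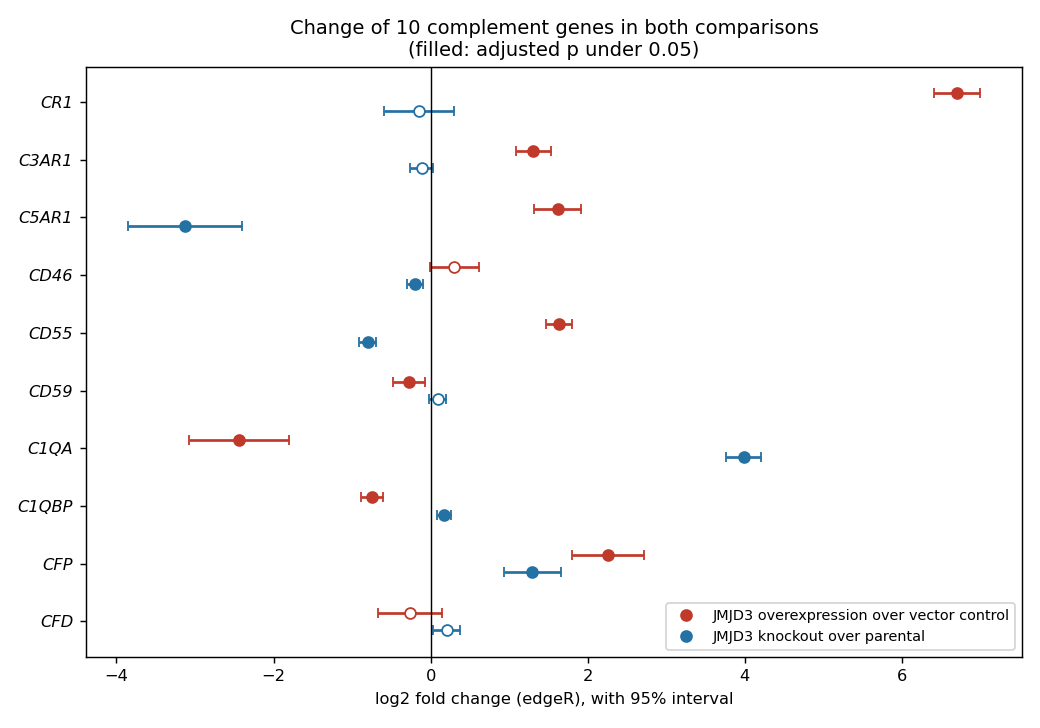
Log2 fold change of each of the 10 complement genes (x axis, rows are genes) in JMJD3 overexpression over vector control (red) and JMJD3 knockout over parental (blue), with bars for the 95% interval of the edgeR fit, 3 libraries a group; filled points have an adjusted p under 0.05. CR1 lies farthest to the right at 6.70 in the overexpression comparison and near 0 in the knockout comparison. C1QA lies at -2.44 and 3.98. In the overexpression comparison C1QA passed the expression filter only through the vector control libraries, so that call is not read as a result.

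The upstream sequences of CR1, C5AR1 and C1QA are shown because these genes had the 3 largest fold changes of the 10 over the 2 comparisons. As printed, the stretches hold no annotated exon. Each is read on the plus strand, 5′ to 3′, up to 250 bases before the start of transcription (RefSeq, GRCh38.p14), and the CR1 stretch is cut to 240 bases where an annotated exon begins. The C5AR1 stretch lies within the longer span that GENCODE gives that gene. Capitals mark matches, on either strand, to the core letters of 3 myeloid factors, GAGGAA for PU.1, TTNCNNAA for C/EBP and TGANTCA for AP-1.
CR1, chr1:207495907-207496146: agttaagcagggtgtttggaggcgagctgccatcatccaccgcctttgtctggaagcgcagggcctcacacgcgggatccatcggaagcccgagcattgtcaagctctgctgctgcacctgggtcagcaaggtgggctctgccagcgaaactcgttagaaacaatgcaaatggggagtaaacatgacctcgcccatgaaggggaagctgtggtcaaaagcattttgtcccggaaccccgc
C5AR1, chr19:47309611-47309860: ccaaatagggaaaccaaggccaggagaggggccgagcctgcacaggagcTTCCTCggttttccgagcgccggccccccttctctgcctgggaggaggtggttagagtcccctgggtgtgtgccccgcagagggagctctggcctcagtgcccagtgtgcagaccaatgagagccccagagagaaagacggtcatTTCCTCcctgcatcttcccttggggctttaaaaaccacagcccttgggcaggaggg
C1QA, chr1:22636213-22636462: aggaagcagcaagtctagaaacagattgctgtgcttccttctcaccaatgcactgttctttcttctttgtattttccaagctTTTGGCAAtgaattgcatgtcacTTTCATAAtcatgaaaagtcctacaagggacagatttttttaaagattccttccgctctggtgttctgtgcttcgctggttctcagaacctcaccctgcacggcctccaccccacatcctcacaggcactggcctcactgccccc
The CR1 stretch held no match, the C5AR1 stretch held 2 to PU.1 and the C1QA stretch held 2 to C/EBP. All 10 genes matched an upstream window, of which 1 held the PU.1 letters, 2 the C/EBP letters (C3AR1 and C1QA) and 1 the AP-1 letters (C3AR1). The same letters occurred in 23.6%, 33.2% and 6.57% of 35116 windows of that length over all genes. CCAAT occurred in 4 of the 10 and in 32.0% of all windows, and TATAAA in 1 and in 10.7%. A match is only a match of letters, and the libraries hold no measurement of binding.

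Among the 3 receptors of the set, CR1 had the largest fold change on overexpression, and C5AR1 in the knockout. CR1, which binds C3b and C4b on coated particles and helps factor I cut them, lies on chromosome 1 from 207496147 to 207641765 (GRCh38, GENCODE 29). It had 54.8, 53.6 and 55.7 CPM in JMJD3 overexpression libraries and 0.394, 0.574 and 0.572 CPM in vector control libraries. The groups lay far apart, with 5713 counts behind the 3 overexpression values and 48 behind the 3 vector values. The log2 fold change was 6.70 ± 0.126 (SE, edgeR, adjusted p = 1.36e-07), a 104-fold difference and the 51st highest of 14322 genes. Only 0.363% of tested genes had a fold change of that size in either direction. On the log2(FPKM + 1) scale, which understates the change of a gene this low in controls, the value was 3.53.

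In the knockout comparison CR1 had 1.54, 1.71 and 1.48 CPM in knockout libraries and 1.46, 1.78 and 2.0 CPM in parental libraries. The groups overlapped, and the log2 fold change of -0.15 had a 95% interval of -0.60 to 0.30 (edgeR, adjusted p = 0.625). In absolute size, 58.2% of tested genes had a change at least as large. FPKM values, which are fragment counts corrected for depth and transcript length, averaged 11.7 ± 0.503 in overexpression and 0.10 ± 0.00953 in vector control libraries, and 0.329 ± 0.105 in knockout and 0.342 ± 0.0675 in parental libraries (SD, n = 3 each). Overexpression thus stood highest, the knockout and parental libraries overlapped in the middle, and the vector control stood lowest. The antisense gene AL137789.1 spans 54631 bases of the locus, introns included, and overlap between exons was not measured. In these unstranded libraries, reads from any shared exon cannot be told apart from CR1. AL137789.1 itself averaged 0.243 CPM in overexpression and 0 CPM in vector control libraries, and 0.0460 CPM in knockout and 0.0151 CPM in parental libraries. The near copy CR1L, which shares sequence with CR1, averaged 0.158 FPKM in overexpression libraries and was listed at 0 in vector control libraries.

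The 3 protein-coding genes whose level followed CR1 most closely over the 12 libraries were CES1 (r = 0.997), S100A8 (r = 0.997) and DHRS9 (r = 0.996), of 11519 compared by Pearson's correlation of log2(CPM + 1). For these correlations CPM was scaled by the library total alone. These r values are a description: all of the libraries fall in 4 groups, and a gene high in a single group gives a high r. S100A8 is one of the mature neutrophil markers that moved with overexpression. The part of that change in the level of CR1 was not tested, and in bulk RNA more cells of a type cannot be told apart from more RNA per cell.

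C3AR1, the receptor of the peptide C3a (chromosome 12, 8058302 to 8066471), had 50.1, 46.8 and 49.9 CPM in overexpression libraries and 19.0, 18.1 and 22.1 CPM in vector control libraries. Every overexpression library lay above every vector library, and the log2 fold change was 1.31 ± 0.0941 (edgeR, adjusted p = 3.82e-05). In the knockout comparison it had 36.7, 44.2 and 39.5 CPM in knockout libraries and 42.2, 41.6 and 46.2 CPM in parental libraries. The groups overlapped, with a log2 fold change of -0.11 and an interval of -0.26 to 0.036 (adjusted p = 0.229). By FPKM it averaged 27.3 ± 1.22 in overexpression and 11.0 ± 1.49 in vector control libraries, and 22.0 ± 2.26 in knockout and 23.8 ± 1.69 in parental libraries (SD, n = 3 each). Overexpression was the highest group and vector control the lowest, with the knockout and parental libraries overlapping between them. CXCL8 (r = 0.986), CCL20 (r = 0.985) and MDM1 (r = 0.981) followed C3AR1 most closely over the 12 libraries, again as a description.

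C5AR1, the signalling receptor of C5a (chromosome 19, 47290023 to 47322066), moved in opposite directions in the 2 comparisons. It had 6.80, 6.95 and 7.86 CPM in overexpression libraries and 2.37, 2.60 and 2.10 CPM in vector control libraries, with no overlap. The log2 fold change was 1.62 ± 0.130 (edgeR, adjusted p = 5.67e-05). It had 0.687, 2.27 and 1.12 CPM in knockout libraries and 12.5, 11.3 and 12.8 CPM in parental libraries. All 3 knockout libraries were far below the parental ones, although the second stood above the other two. The log2 fold change was -3.12 ± 0.305 (adjusted p = 0.000199), 8.72-fold lower and the 121st lowest of 14186 genes, and without knockout replicate 2 it was -3.74. By FPKM it averaged 3.66 ± 0.274 in overexpression and 1.23 ± 0.166 in vector control libraries, and 0.666 ± 0.405 in knockout and 6.14 ± 0.470 in parental libraries (SD, n = 3 each). The order of level was parental, overexpression, vector control and knockout, with no overlap between neighbours. In mean FPKM the 2 control groups lay further apart than the overexpression and vector groups did.

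The gene next to it, C5AR2, encodes the second C5a receptor, which lacks the usual G protein signalling. It had 9.36, 9.78 and 9.48 CPM in overexpression libraries and 4.89, 5.06 and 5.56 CPM in vector control libraries (log2 fold change 0.88 ± 0.0964, adjusted p = 0.000243). It had 3.54, 4.04 and 4.39 CPM in knockout libraries and 6.76, 6.17 and 6.99 CPM in parental libraries (-0.74 ± 0.127, adjusted p = 0.000232). Both C5a receptors therefore moved in the same directions, with smaller fold changes in C5AR2, although the difference in size was not tested. Of the 7 protein-coding genes that start within 150 kb of C5AR1, 6 passed the expression filter in each comparison. BBC3, a pro-apoptotic gene, rose with overexpression (0.74) and fell in the knockout (-0.94) as well. MEIS3 had 2.75 CPM in overexpression and 0.0182 CPM in vector control libraries. It passed the filter in that comparison only through the overexpression libraries, so its call is not read as a result. In the knockout CCDC9 fell (-0.30) and DHX34 rose (0.19).

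**Figure D2:**
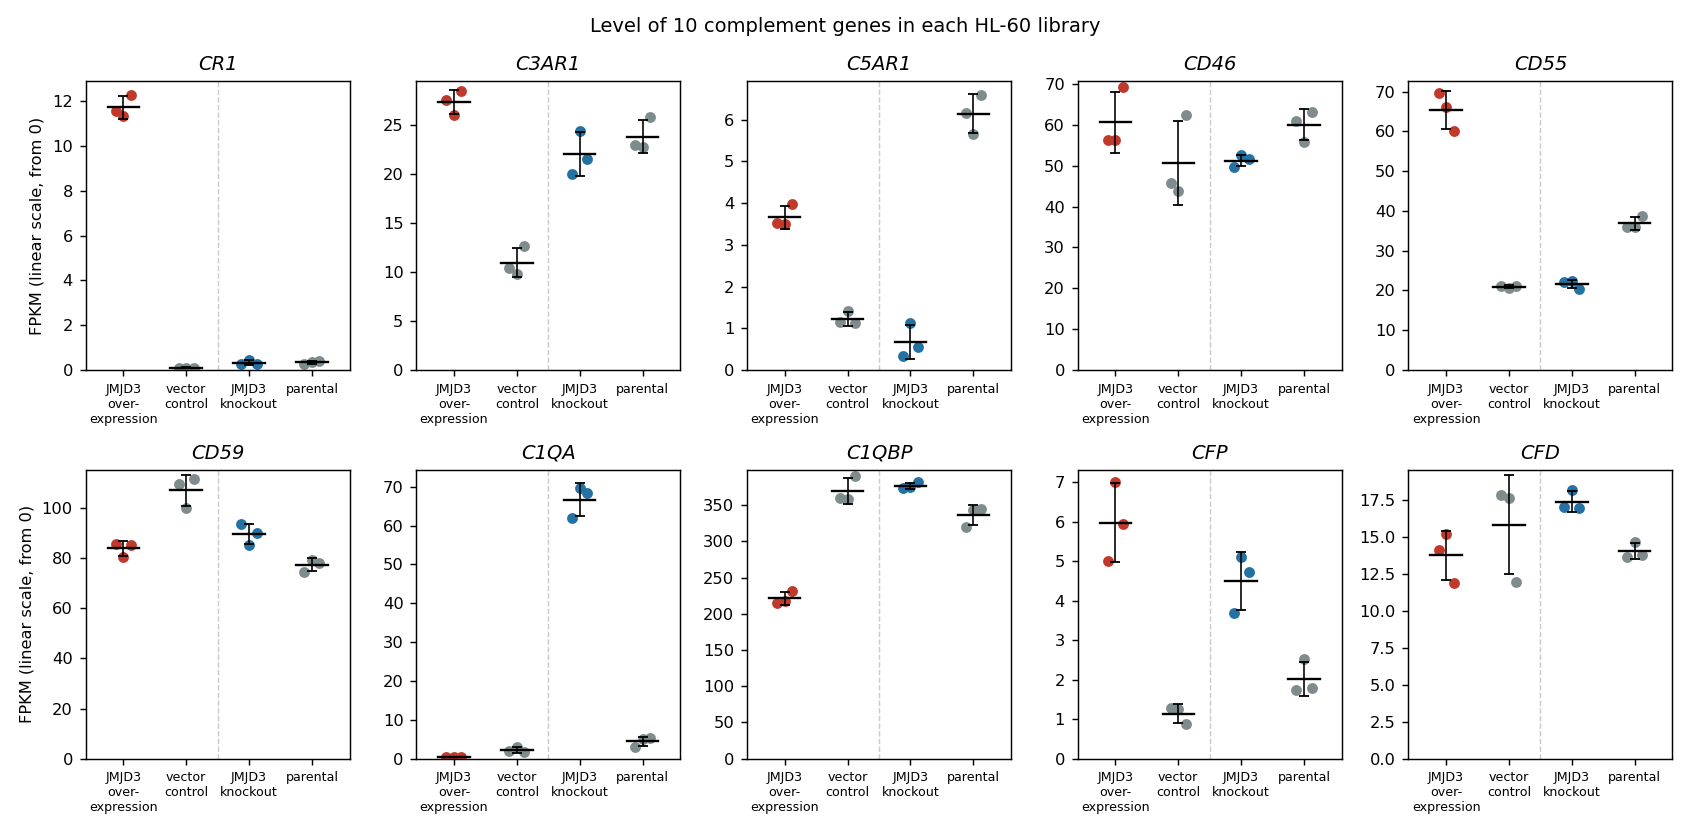
FPKM of the 10 complement genes in each library (y axis, linear and starting at 0, a scale for each gene), with JMJD3 overexpression left of vector control and JMJD3 knockout left of parental; points are the 3 libraries of a group, horizontal lines the mean and bars the SD. CR1 stands far above the other groups in overexpression libraries (mean 11.7 FPKM) and C1QA in knockout libraries (mean 66.7 FPKM), while the vector control and parental libraries overlap in CD46 and CFD and in none of the other 8 genes.

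The 3 membrane regulators differed in size and direction. CD55, or decay-accelerating factor, speeds the break-up of the C3 and C5 convertases, and it lies on chromosome 1 from 207321376 to 207386804. It had 112.2, 110.3 and 102.8 CPM in overexpression libraries and 34.4, 34.0 and 36.1 CPM in vector control libraries. The groups were well separated, with a log2 fold change of 1.64 ± 0.0715 (edgeR, adjusted p = 4.21e-06). It had 40.1, 41.6 and 40.1 CPM in knockout libraries and 69.0, 69.7 and 73.8 CPM in parental libraries. Every knockout library was below every parental library, with a log2 fold change of -0.80 ± 0.0509 (adjusted p = 3.61e-09). By FPKM, CD55 averaged 65.4 ± 4.82 in overexpression and 20.9 ± 0.368 in vector control libraries, and 21.6 ± 1.04 in knockout and 36.9 ± 1.61 in parental libraries (SD, n = 3 each). Overexpression was highest, parental next, and the knockout and vector libraries overlapped at the bottom.

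CD46, or membrane cofactor protein, lets factor I cut C3b and C4b on the cell that bears it (chromosome 1, 207752057 to 207795513). It had 149.3, 146.4 and 178.6 CPM in overexpression libraries and 118.1, 113.9 and 152.4 CPM in vector control libraries. The groups overlapped because the third library of both was the high one. The log2 fold change was 0.30 ± 0.132, with an interval of -0.0057 to 0.61, and was not called (edgeR, adjusted p = 0.0937). With the replicate number as a block it was 0.31 and was called (adjusted p = 1.64e-12), but with replicates 1 and 2 of both groups, which were close to each other, summed into 1 library it was 0.28 and was not called (adjusted p = 0.290). Without vector control replicate 3 it was 0.46 (adjusted p = 0.00588). In all, 6 of 17 alternatives called it. They also included upper-quartile (adjusted p = 0.0383) and library-size scaling (0.0347), no low-count filter (0.0185) and replicates 1 and 2 only (7.50e-15). Over the 17 alternatives the adjusted p ranged up to 0.409.

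In the knockout comparison CD46 had 138.6, 145.6 and 146.8 CPM in knockout libraries and 167.7, 154.8 and 173.6 CPM in parental libraries. The groups did not overlap, and the log2 fold change of -0.20 ± 0.0484 was called (edgeR, adjusted p = 0.00334). It was not called by limma on log2(FPKM + 1) (adjusted p = 0.0863). By FPKM it averaged 60.6 ± 7.48 in overexpression and 50.6 ± 10.2 in vector control libraries, and 51.3 ± 1.45 in knockout and 60.02 ± 3.81 in parental libraries (SD, n = 3 each). The ratio of the highest to the lowest group was 1.2, the narrowest of the 10 genes; overexpression overlapped parental at the top, and knockout overlapped vector control at the bottom.

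CD59, which stops the terminal pore from forming (chromosome 11, 33703010 to 33736491), had 84.7, 82.6 and 91.6 CPM in overexpression libraries and 99.9, 97.2 and 115.3 CPM in vector control libraries. The groups did not overlap but nearly touched, and the log2 fold change was -0.27 ± 0.088 (edgeR, adjusted p = 0.0350). Its call was lost in 7 of 17 alternatives: without overexpression replicate 1 (adjusted p = 0.106) or 2 (0.120), without vector control replicate 1 (0.0650) or 3 (0.0697), with replicates 1 and 2 summed (0.167), and with upper-quartile (0.111) or library-size scaling (0.309). In the knockout comparison it had 99.4, 89.3 and 97.4 CPM in knockout libraries and 92.1, 89.8 and 87.2 CPM in parental libraries. These overlapped, with a log2 fold change of 0.088 and an interval of -0.016 to 0.19 (adjusted p = 0.177), and the gene was called without knockout replicate 2 (0.14, adjusted p = 0.0290). CD59 averaged, by FPKM, 83.9 ± 2.86 in overexpression and 107.1 ± 6.21 in vector control libraries, and 89.6 ± 4.15 in knockout and 77.3 ± 2.60 in parental libraries (SD, n = 3 each). The vector control was highest and the parental group lowest, and the knockout and overexpression libraries overlapped between them. A protein-coding gene annotated on the same strand, AL049629.2, overlaps 19458 bases of the CD59 locus, introns included, so the sharing of reads between them is uncertain.

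CD55, CR1 and CD46 lie in that order within the regulators of complement activation cluster on chromosome 1. Within 150 kb of any of them, no protein-coding gene other than these 3 passed the expression filter, and CR2, CR1L and CD34 were near 0. The long non-coding gene MIR29B2CHG, close to CD46, passed and was not called in either comparison. In overexpression cells CR1 and CD55 rose, and in knockout cells CD55 and CD46 fell while CR1 was not called.

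C1QA, one of the 3 chains of C1q, the protein that starts the classical pathway, lies on chromosome 1 from 22636506 to 22639608. It rose most of the 10 genes in the knockout. It had 52.0, 54.4 and 55.9 CPM in knockout libraries and 2.57, 3.81 and 3.83 CPM in parental libraries. The groups were far apart, with 4957 counts in the knockout and 397 in the parental libraries. The log2 fold change was 3.98 ± 0.103 (edgeR, adjusted p = 2.33e-13), 15.8-fold higher and the 41st highest of 14186 genes. A change of that size in either direction was seen in 0.895% of tested genes.

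With overexpression C1QA moved the other way, with 0.273, 0.298 and 0.265 CPM in overexpression libraries and 1.54, 1.89 and 1.17 CPM in vector control libraries. There was no overlap, on 29 and 138 counts, and the log2 fold change was -2.44 ± 0.273 (edgeR, adjusted p = 0.000287), the 33rd lowest of 14322 genes. A change at least as large in either direction was seen in 3.84% of tested genes. On the log2(FPKM + 1) scale it was -1.19. By FPKM it averaged 0.377 ± 0.0378 in overexpression and 2.19 ± 0.699 in vector control libraries, and 66.7 ± 4.14 in knockout and 4.43 ± 1.17 in parental libraries (SD, n = 3 each). The order of level was knockout, parental, vector control and overexpression, with no overlap between neighbours. The highest group was 177 times the lowest, the widest ratio of the 10, although the tables were scaled apart. RAMP1 (r = 0.992), GPR183 (r = 0.985) and SLC2A5 (r = 0.984) followed C1QA most closely over the 12 libraries, as a description.

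The other C1q chain genes, C1QC and C1QB, lie next to C1QA and are needed with it to build the protein, but both were close to 0. C1QC had 32 counts over the knockout libraries and 2 over the parental libraries, 20.3 times as many after scaling (counting error alone allows 5.17 to 174.5). It passed the expression filter only through the knockout libraries, so it had to differ, and its call is not read as a result. C1QB had 10 counts over the knockout libraries and 4 over the parental libraries and was too low to test. By length-corrected level in knockout libraries, C1QA averaged 66.7 FPKM, C1QC 0.401 FPKM and C1QB 0.157 FPKM. The transcripts of the 3 chains were therefore far from equal, and C1QA alone was abundant.

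Macrophages that make C1q carry other markers too. The 6 listed markers of such cells, C1QB and C1QC among them, summed to 0.702 to 0.858 CPM in knockout libraries and 0.406 to 0.545 CPM in parental libraries, and MARCO and TIMD4 were at 0 counts in the knockout. Of 8 listed monocyte and macrophage markers, 2 were called higher in the knockout and none lower; they summed to 48.0 to 49.4 CPM in knockout libraries and 39.0 to 42.7 CPM in parental libraries. On overexpression 4 of these 8 were called higher and none lower, and they summed to 40.7 to 41.3 CPM in overexpression libraries and 25.2 to 26.9 CPM in vector control libraries. EPHB2, a receptor tyrosine kinase gene within 150 kb of C1QA, rose with overexpression (2.68) and fell in the knockout (-0.92), where C1QA rose.

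**Figure D3:**
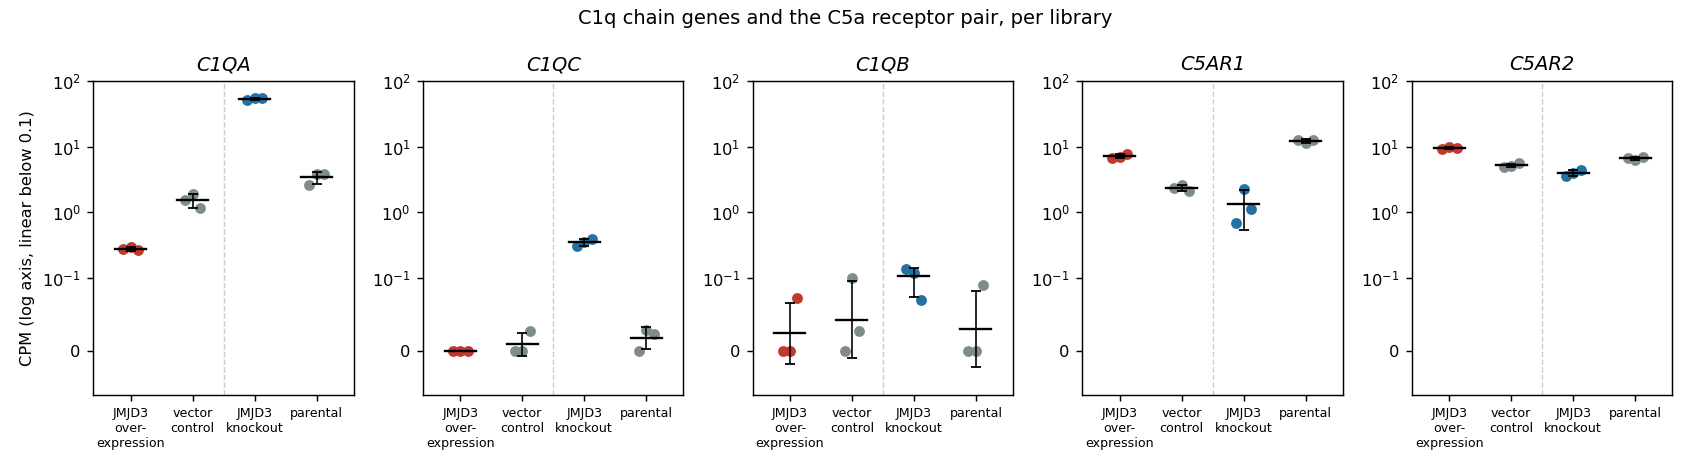
CPM in each library (y axis, logarithmic above 0.1 and linear below it) of the C1q chain genes C1QA, C1QC and C1QB and of the C5a receptor genes C5AR1 and C5AR2, with JMJD3 overexpression left of vector control and JMJD3 knockout left of parental; points are libraries, lines the mean and bars the SD of 3. C1QA stands above 50 CPM in the knockout, where C1QC and C1QB stay below 0.4 CPM, while the C5a receptors are both lowest in the knockout.

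C1QBP encodes a mainly mitochondrial protein that was first found through its binding to C1q, and it lies on chromosome 17 from 5432777 to 5448830. It had 191.5, 193.8 and 194.4 CPM in overexpression libraries and 321.7, 322.2 and 328.9 CPM in vector control libraries. The groups were clearly apart, with a log2 fold change of -0.75 ± 0.0582 (edgeR, adjusted p = 4.92e-05). It had 342.7, 333.1 and 346.1 CPM in knockout libraries and 291.1, 310.6 and 303.6 CPM in parental libraries. The knockout libraries were all higher, by a small log2 fold change of 0.17 ± 0.0419 (adjusted p = 0.00351), which limma on log2(FPKM + 1) did not call (adjusted p = 0.0719). Per length, C1QBP had the highest level of the 10 genes in all 4 groups, at 221.6 ± 8.81 FPKM in overexpression and 369.3 ± 18.0 FPKM in vector control libraries, and 376.7 ± 4.44 FPKM in knockout and 335.9 ± 13.9 FPKM in parental libraries (SD, n = 3 each). The knockout and vector control libraries overlapped at the top, above parental and then overexpression. DHX33 overlaps 7919 bases of its locus, introns included, on the same strand and RPAIN 100 bases on the opposite strand, so shared reads are uncertain there.

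The 2 alternative pathway genes differed from each other. CFP encodes properdin, which steadies the C3 convertase and is stored in neutrophil granules, and it lies on chromosome X from 47623172 to 47630305. It had 6.70, 9.03 and 7.72 CPM in overexpression libraries and 1.93, 1.82 and 1.23 CPM in vector control libraries. The groups did not overlap, and the log2 fold change was 2.25 ± 0.198 (edgeR, adjusted p = 9.47e-05). It had 5.39, 7.36 and 6.11 CPM in knockout libraries and 2.49, 3.18 and 2.09 CPM in parental libraries, again without overlap (1.29 ± 0.170, adjusted p = 1.62e-05). CFP was the only one of the 10 genes called in the same direction in both comparisons. CFP averaged, by FPKM, 5.98 ± 1.01 in overexpression and 1.14 ± 0.235 in vector control libraries, and 4.51 ± 0.737 in knockout and 2.02 ± 0.433 in parental libraries (SD, n = 3 each). The overexpression and knockout libraries overlapped at the top, with parental and then vector control below them.

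CFD encodes factor D, the protease that cuts factor B, and lies on chromosome 19 from 859643 to 863630. It had 12.3, 12.4 and 10.4 CPM in overexpression libraries and 16.1, 15.8 and 10.4 CPM in vector control libraries. The third vector library was level with the third overexpression library, and the log2 fold change of -0.26, with an interval of -0.67 to 0.15, was not called (edgeR, adjusted p = 0.251). With the replicate number as a block it was -0.24 and was called (adjusted p = 0.00385), as it was without vector control replicate 3 (-0.43, adjusted p = 0.0122). With replicates 1 and 2 of both groups, which were close to each other, summed into 1 library it was -0.21 and was not called (adjusted p = 0.533). It had 15.1, 15.7 and 14.0 CPM in knockout libraries and 12.9, 13.5 and 12.6 CPM in parental libraries. These did not overlap, and the log2 fold change of 0.20, with an interval of 0.032 to 0.38, missed the threshold (adjusted p = 0.0587); limma on log2(FPKM + 1) called it (adjusted p = 0.0370). CFD averaged, by FPKM, 13.8 ± 1.68 in overexpression and 15.8 ± 3.36 in vector control libraries, and 17.4 ± 0.695 in knockout and 14.1 ± 0.547 in parental libraries (SD, n = 3 each). In order of mean FPKM, which was knockout, vector control, parental and overexpression, each group overlapped the next. The knockout libraries (17.0, 18.2 and 17.0 FPKM) did not overlap the parental libraries (13.7, 14.7 and 13.8 FPKM).

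CFD sits beside the neutrophil granule protease genes, and several of its neighbours were called where it was not. Of 13 protein-coding genes that start within 150 kb, 9 passed the expression filter. With overexpression 6 of them fell and 2 rose, beside 23.9% called lower and 26.4% called higher over all genes tested. PRTN3, encoding proteinase 3, fell by 3.75 on the log2 scale, to 62.5 CPM in overexpression libraries, against 839.1 CPM in vector control libraries. AZU1, encoding azurocidin, fell by 1.85, PLPPR3 by 1.83, PTBP1 by 0.72, MED16 by 0.55 and WDR18 by 0.54, while R3HDM4 (0.39) and ARID3A (0.36) rose. In the knockout PRTN3 (0.35), PLPPR3 (0.29) and WDR18 (0.13) rose and none of the 9 fell, beside 17.6% called higher and 20.2% called lower over all genes. PRTN3 and AZU1 also belong to the promyelocyte markers, 4 of whose 7 genes were called lower with overexpression.

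Groups that did not overlap in CPM were seen for 8 of the 10 complement genes on overexpression, beside 58.9% of all genes tested. The 8 include C1QA, which passed the expression filter there only through the vector control libraries. On knockout such groups were seen for 7, beside 48.9%.

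Of 51 other complement genes, listed by pathway, most were silent or nearly so in these cells. In the overexpression comparison 18 passed the expression filter, 14 rose and 2 fell, and in the knockout comparison 15 passed, 2 rose and 5 fell. A gene that passed only through a group in which it was high had to differ, so these counts are not read against the share of calls over all genes. Under 10 counts over the 6 libraries were found for 27 of the 51 in the overexpression comparison and for 29 in the knockout comparison. None of 6 terminal pathway genes passed in either comparison. Of 16 soluble regulators only CLU (1.98) and SUSD4 (1.57) passed, both in the overexpression comparison. They passed only through the overexpression libraries, so their calls are not read as results.

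Among the 10 further receptor genes listed, 7 passed the filter on overexpression, of which 6 were called higher and 1 lower. The 6 include CD93, which passed only through the overexpression libraries. This count too is not read against the share of calls over all genes. The integrin subunits of complement receptors 3 and 4, which bind the C3 fragment iC3b, all rose. ITGAM had 61.7, 60.1 and 62.5 CPM in overexpression libraries and 6.19, 6.21 and 5.18 CPM in vector control libraries. ITGAX had 84.9, 87.9 and 84.3 CPM in overexpression libraries and 1.06, 1.32 and 1.2 CPM in vector control libraries, a log2 fold change of 6.16 that is close in size to that of CR1. Their shared partner ITGB2 rose by 2.39. In the knockout ITGAX fell by 1.14 and ITGB2 by 0.28, while ITGAM was not called (-0.10, adjusted p = 0.465).

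LRP1, an endocytic receptor, rose with overexpression (3.15) and fell in the knockout (-1.82). CD93, once described as a C1q receptor, had 347 counts over the overexpression libraries and 0 over the vector control libraries. Against a floor of 3 counts over the group the ratio was 101.7, and its counting interval without that floor starts at 82.3. CD93 passed the expression filter only through the overexpression libraries, so its call is not read as a result. CALR, an endoplasmic reticulum chaperone that also binds C1q, fell with overexpression (-0.95) and rose in the knockout (0.38), as C1QBP did.

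Of the fluid-phase components, C3, the central protein of the cascade, had 5.47, 5.43 and 5.26 CPM in overexpression libraries and 0.631, 0.641 and 1.01 CPM in vector control libraries (log2 fold change 2.79, edgeR, adjusted p = 2.91e-05). Its FPKM values overlapped, at 2.71, 1.09 and 1.31 in overexpression libraries and 0.457, 0.323 and 1.57 in vector control libraries, and the cause of this difference between the 2 units was not tested. MASP2 fell with overexpression (-0.79), at a low level. C1R (2.14), C2 (2.07), FCN1 (3.37), C4A (1.47) and C4B (1.40) were called higher, all at low levels. Each of these passed the expression filter only through the overexpression libraries, so their calls are not read as results. C4A and C4B are also near-identical copies, and the share of reads given to each is uncertain. In the knockout C3, C4A, C4B, C5, C1S, FCN1 and MASP2 were not called. C1R was called lower there (-1.10), but it passed the filter only through the parental libraries, so that call is not read as a result.

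**Figure D4:**
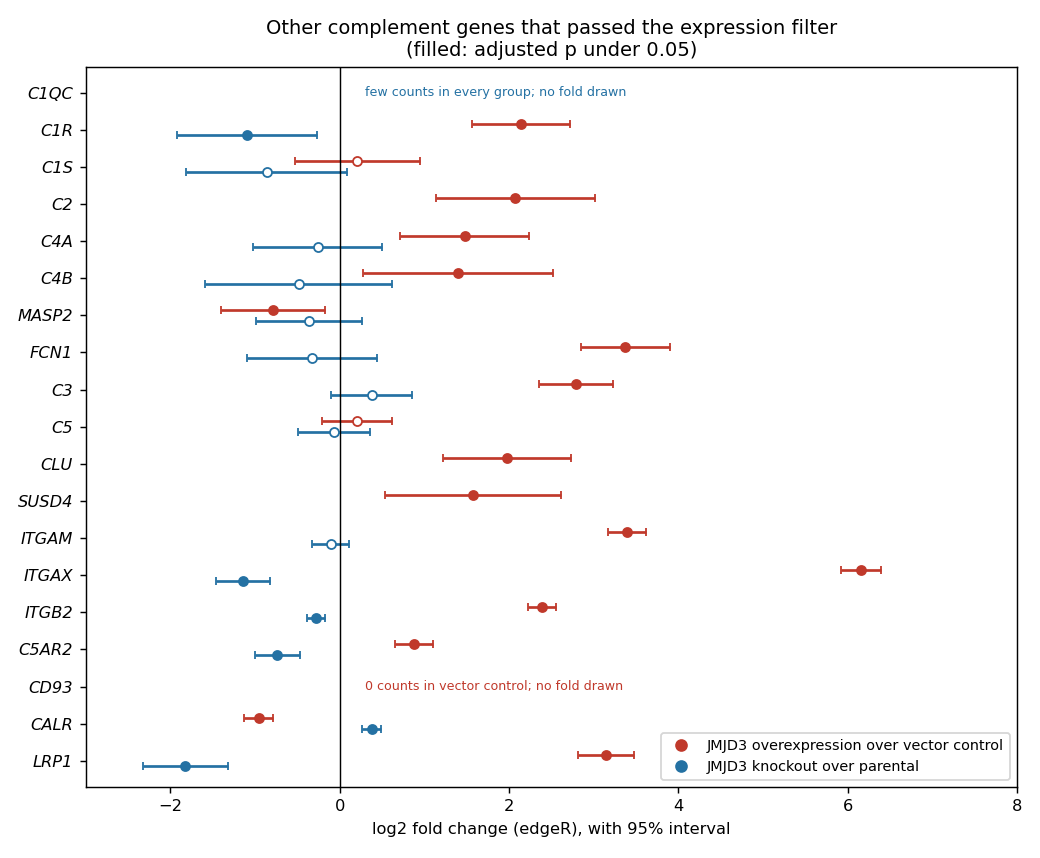
Log2 fold change (x axis) of the listed complement genes outside the 10 that passed the expression filter (rows), in JMJD3 overexpression over vector control (red) and JMJD3 knockout over parental (blue), with bars for the 95% interval of the edgeR fit and filled points for an adjusted p under 0.05; C1QC and CD93 are given in the text as counts. ITGAX lies farthest right at 6.16. Of the genes called in both comparisons LRP1, ITGAX, ITGB2 and C5AR2 lie right of 0 in red and left of it in blue, and CALR the reverse. Red points of C1R, C2, C4A, C4B, FCN1, CLU and SUSD4 are from genes that passed only through the overexpression libraries. The blue C1R point passed only through the parental libraries. These calls are not read as results.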

How the data were processed

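Bulk RNA-seq of 12 HL-60 libraries in 4 groups of 3 was grouped by the sample titles. Per the labels' protocols, libraries were made with an Illumina TruSeq kit that does not mark strand. RSEM, edgeR, TopHat2 2.0.4, CASAVA 1.8 and the GRCh38 build appear in the submitters' processing notes, without the column that each made. For each comparison the authors deposited a table of counts and FPKM per library, with their log2 fold change, p-value and adjusted p-value per gene, per the file headers. The deposited count columns are expected counts times a factor per library (0.772 to 1.197), as read from the values: after division, between 92.9% and 94.1% of values no larger than 1000 came within 0.02 of a whole number. They were divided out and rounded to whole numbers.

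The 6 libraries of a comparison were fitted together in edgeR 4.0.16 (R 4.3.3) after TMM scaling and its standard filter on low counts. Genes were called by the robust quasi-likelihood test at a Benjamini-Hochberg adjusted p under 0.05, and the fit was tested on simulated data. SE was obtained as |log2 fold change| over the root of F. CPM uses the TMM factors of its own table, except in the correlations of CR1, C3AR1 and C1QA with other genes, where it uses the library total alone. The deposited FPKM values were used for levels across the 2 tables, which were scaled separately, and in alternatives with limma 3.58.1 (pseudocounts 1 and 0.1). The authors' deposited log2 fold changes, p-values and adjusted p-values were not used for any result. Other alternatives were DESeq2 1.42.0, other scalings, no low-count filter, a replicate block and libraries left out or summed. Positions come from GENCODE 29 and upstream sequences from RefSeq.

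All 10 complement genes are named. Also named are KDM6B, other listed complement genes called in either comparison, called neighbours within 150 kb of CR1, CD46, CD55, C1QA, CFD and C5AR1, and the 3 protein-coding genes most correlated with CR1, C3AR1 and C1QA. A few genes, named only to complete a count, were picked once their values were known. The genes and lists were chosen with earlier results of these data known. Whether replicate numbers pair the libraries was checked from the correlation of deviations from group means. Same-numbered overexpression and vector control libraries correlated at 0.199, 0.238 and 0.553. The main fit did not use the numbers, and they were taken as pairs only in the alternative with a replicate block. Overexpression replicate 1 correlated with vector replicate 2 at 0.255, and overexpression replicate 2 with vector replicate 1 at 0.203, so the numbers 1 and 2 are not told apart by this check. In that comparison replicates 1 and 2 differed by a chi-square of 1.68 (overexpression) and 1.93 (vector control) per gene, and replicate 3 differed from them by 30.5 to 38.6, so replicates 1 and 2 were also summed into 1 library in an alternative. Values of some single marker genes are not reported here.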

Additional observations from a re-analysis of the deposited data

How the results depend on the processing

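For the 10 genes, 313 of 339 values under alternatives kept their direction and their side of the threshold, 14 gained a call, 11 lost one and 1 reversed: CR1 in the knockout, at 0.011 with replicates 1 and 2 only. CR1 had no knockout value by limma at a mean FPKM of 1 or more. Leaving out 1 library gave 7 to 9 calls among the 10 on overexpression and 6 to 7 on knockout, 13 to 15 and 6 to 9 among other complement genes, and 5848 to 7626 and 4335 to 5313 over all genes. With the replicate block, 10 genes on overexpression and 6 on knockout were called, and 10489 and 4597 over all genes. The block changed no other call among the 10 than those of CD46 and CFD on overexpression. In the knockout the same-numbered libraries did not deviate together (correlations of 0.036, -0.12 and -0.069), so they share only a number.

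Over all genes on overexpression, calls were 4351 with replicates 1 and 2 summed, 4369 by limma on log2(FPKM + 1) and 4797 on log2(FPKM + 0.1). On knockout they were 3514 with replicates 1 and 2 only, and 1947, 2097 and, at a mean FPKM of 1 or more, 2806 by limma. Other complement genes fell to 6 calls on overexpression at a mean FPKM of 1 or more, and to 3, 3 and 2 on knockout by the 3 limma fits. The mean filter tests fewer genes; the cause of the other differences was not tested. Low counts limit C1QA on overexpression, C1QC and C1QB.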
